A study of Mus musculus with 2 samples.

Results

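Primitive streak and nascent mesoderm cells were examined in pooled single-cell RNA sequencing data from mouse embryoid bodies and the epiblast stem cells they came from. They were chosen by their UMIs, the counted RNA molecules of each gene. Cells were kept if 1000 genes or more were detected and mitochondrial UMIs did not exceed 10%. Among these, a primitive streak and nascent mesoderm cell, called a streak cell below, had at least 3 UMIs of Mixl1, Mesp1, Lhx1 and Rspo3 together. It also had fewer than 3 UMIs of Kdr, Etv2, Tal1, Lmo2 and Hand1 together and fewer than 5 of Col3a1, Col1a1, Col1a2 and Dcn together. These limits gave 296 streak cells of 16841 kept cells, or 1.76% (exact binomial 95% interval 1.56 to 1.97%).

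The labels describe 2 samples of the cell line Delmix, with 1 sample per group. The first group is embryoid bodies (aggregates of differentiating cells) on day 2, made from epiblast stem cells, and the second is the stem cells themselves, with no treatment. Every group therefore derives from the same line, and no allele or agent is named. The deposited counts are 1 pooled matrix whose tag names match no label, so no cell was given to either group, no replicate exists and no test was made. Values below compare streak cells with other cells of this pool. Intervals are 95% intervals, exact Poisson for levels and exact binomial for shares, and cover counting error only. For a count of 0 the limit given is 3 counts, which is lower than the upper end of those intervals.

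The primitive streak is the furrow of the gastrulating epiblast at which epithelial cells lose their adhesion, move inward and become mesoderm or endoderm. Nodal, WNT and BMP ligands induce it, and the T-box factors T (brachyury) and Eomes are its central regulators. FGF8 is needed for cells to leave the streak, and the retinoic acid-degrading enzyme CYP26A1 is found in the early streak and its mesoderm. Of the genes of the rule, Mixl1 and Lhx1 encode homeodomain factors of the streak and Mesp1 a factor of nascent mesoderm. Rspo3 encodes a secreted protein that raises the response to WNT.

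Streak cells held 2131674 UMIs in all. The median streak cell had 5970 UMIs and 2663.5 genes, against 6482 UMIs and 2682 genes in the other 16545 kept cells. Mitochondrial UMIs made up 2.71% at the median, against 3.14% in the other kept cells. In quartiles of kept cells from the shallowest to the deepest by UMIs, streak cells made up 2.42%, 1.64%, 1.31% and 1.66%. Doublets, droplets with more than 1 cell, were called for 56 streak cells (18.9%, 14.6 to 23.9%), against 12.6% of the other kept cells (12.1 to 13.1%). Genes of fibroblasts and macrophages were lower in streak cells than in the other kept cells. The latter include 530 cells with at least 5 UMIs of Col3a1, Col1a1, Col1a2 and Dcn together, which the rule keeps out of streak cells. The lower fibroblast sum is thus partly by construction. The 8 fibroblast genes outside the rule summed to 58.2 CPM (counts per 1000000 UMIs of the group), against 464 CPM in the other kept cells, with Thy1 at 0 UMIs. In 2 groups described below, they summed to 51.4 CPM (Meis2 and Fgf8 cells) and 147 CPM (Hand1 and Kdr cells). With the 4 that the rule limits, a streak cell had between 0 and 14 UMIs of fibroblast genes. The 9 macrophage genes summed to 5.63 against 83.9 CPM, with 4 of them (C1qb, Tyrobp, Fcer1g and Ccl6) at 0 UMIs and at most 1 UMI per streak cell. The 8 visceral endoderm genes summed to 9.38 against 6.92 CPM, with Afp, Apoa1 and Ttr at 0 UMIs. The 9 trophoblast genes outside the rule summed to 223 against 65.3 CPM, of which Eomes and Cdx2, also genes of the streak, were at least 2-fold higher, and the defining genes Elf5 and Tpbpa were at 0 UMIs. The 10 germ cell genes summed to 132 against 237 CPM and the 8 genes of the two-cell state to 39.9 against 41.6 CPM.

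The 4 genes of the rule were unevenly spread over the streak cells. The median streak cell had 5 of their UMIs and the highest had 26, while 71 cells were just inside the limit at 3. All 4 genes were detected in 13 streak cells, 3 genes in 63, 2 genes in 100 and 1 gene in 120. Rspo3 alone brought in 95 cells (32.1%), whereas Mixl1 alone brought in 11, Lhx1 alone 8 and Mesp1 alone 6. The most common pairs were Lhx1 with Rspo3 in 30 cells and Mesp1 with Rspo3 in 27. As a description of the choice, Rspo3 stood at 412 CPM in streak cells against 8.72 CPM in the other kept cells. Lhx1 stood at 169 against 2.14 CPM, Mesp1 at 163 against 2.08 CPM and Mixl1 at 106 against 2.505 CPM.

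T, the marker of the label that the rule did not use, had 387 UMIs in streak cells, between 0 and 15 per cell with a median of 1. Its level was 182 CPM (164 to 201), against 17.5 CPM (16.8 to 18.3) in the other kept cells. Eomes had 351 UMIs, between 0 and 11 per cell with a median of 0, and stood at 165 CPM (148 to 183) against 16.5 CPM (15.8 to 17.3). These are ratios of 9.85 and 9.45, with 1 CPM added to each level as in every ratio below. At least 1 UMI of T or Eomes was found in 227 streak cells (76.7%, 71.4 to 81.4%), against 13.8% of the other kept cells (13.3 to 14.4%). T was found in 154 streak cells (52.0%) and Eomes in 139 (47.0%). Both were found in 66, which is 42.9% of the cells with T and 47.5% of those with Eomes. Without called doublets, T stood at 225 against 17.2 CPM and Eomes at 192 against 16.2 CPM. With every cell thinned to 2000 UMIs, which leaves out 1 streak cell and 293 of the others, T was found in 26.8% of streak cells (21.8 to 32.2%). The thinned share was 2.80% in the other kept cells and 0.947% in cells with at least 5 collagen-group UMIs, which should lack T and serve as the measure of free RNA (medians of 5970, 6482 and 7404 UMIs before thinning). Unthinned, T was found in 52.0%, 6.74% and 3.02% of these cells. Thinned Eomes was found in 24.4% of streak cells, against 2.86% of the other kept cells and 1.70% of the collagen-group cells.

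At least 1 UMI of T or Eomes was found in a smaller share of the cells that Rspo3 alone brought in. Of those 95, 60 had a UMI of T or Eomes (63.2%, 52.6 to 72.8%), against 167 of the 201 with Mixl1, Mesp1 or Lhx1 (83.1%, 77.2 to 88.0%). Their median depths were 5218 and 6204 UMIs. In the 95 cells T stood at 184 CPM and Eomes at 43.2 CPM, against 182 and 165 CPM in all streak cells. No UMI of T, Eomes, Fgf8, Evx1, Snai1 or Sp5 was found in 24 streak cells, and 18 of these had Rspo3 alone. At the other end, 121 streak cells carried at least 3 of these 6 genes.

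Levels across the limit of the rule were graded. In cells with 0, 1, 2, 3, 4 and 5 or more UMIs of the 4 genes, T stood at 14.3, 60.2, 154, 181, 190 and 178 CPM. These classes held 15082, 595, 136, 71, 64 and 161 cells, and only the last 3 are streak cells. Eomes stood at 12.5, 28.7, 114, 140, 130 and 188 CPM, so both T-box genes were already high just outside the limit. Cyp26a1 stood at 0.899, 10.5, 45.8, 116, 110 and 172 CPM. Cdh1, the adhesion molecule of epithelia, ran the other way at 207, 187, 119, 71.0, 105 and 64.0 CPM. The core pluripotency factor Pou5f1 stood at 579, 512, 339, 319, 293 and 207 CPM. Doublets were called for 11.8%, 19.7%, 22.1%, 22.5%, 25% and 14.9% of the cells of these classes, and their part in the gradient was not tested.

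**Figure D1:**
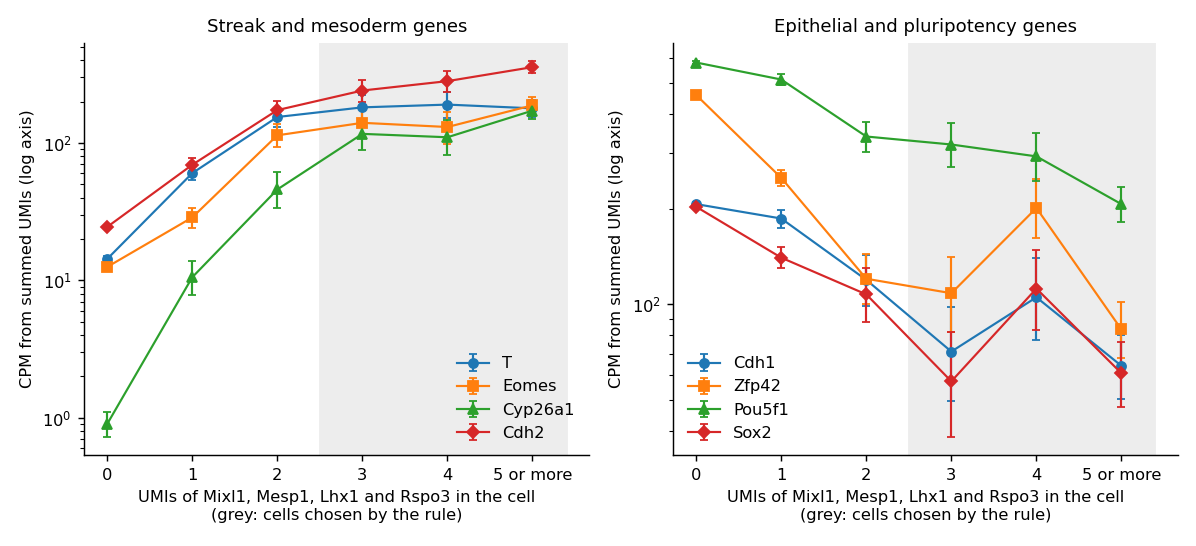
Levels (CPM from summed UMIs, log axes) of 4 streak and mesoderm genes (left) and 4 epithelial and pluripotency genes (right) in cells grouped by their UMIs of Mixl1, Mesp1, Lhx1 and Rspo3; bars are exact Poisson 95% intervals. T and Eomes were at 154 and 114 CPM in the class just outside the limit, and at 181 and 140 CPM just inside it.

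On the side of the lateral limit, 188 streak cells had 0, 62 had 1 and 46 had 2 UMIs of Kdr, Etv2, Tal1, Lmo2 and Hand1. T stood at 225, 165 and 59.3 CPM in these, and at 85.3 and 54.7 CPM in the cells just outside, with 3 and 4 such UMIs (26 and 20 cells). Eomes stood at 135, 155 and 280 CPM inside and at 264 and 353 CPM outside. Mixl1, Mesp1, Gata6 and Msx1 were also lowest in the cells with 0 such UMIs. T was thus highest, and Eomes lowest, in the streak cells with 0 such UMIs.

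Upstream sequence is shown for T and Eomes, for Mesp1 of the rule and for Cyp26a1, the gene with the highest ratio below. Each line gives 250 bases upstream of the RefSeq start (GRCm38.p6), 5′ to 3′ on the strand of the gene. T lies at chr17:8434173-8434422 (plus strand), Eomes at chr9:118477939-118478188 (plus), Mesp1 at chr7:79793591-79793840 (minus) and Cyp26a1 at chr19:37697558-37697807 (plus). Capitals mark matches on either strand to CTTTGAT or CTTTGAA (TCF/LEF), AGGTGT (T-box) or AGTTCANNNNNAGTTCA (a direct repeat of the kind that retinoic acid receptors bind). The motifs were chosen with these sequences in view.
T: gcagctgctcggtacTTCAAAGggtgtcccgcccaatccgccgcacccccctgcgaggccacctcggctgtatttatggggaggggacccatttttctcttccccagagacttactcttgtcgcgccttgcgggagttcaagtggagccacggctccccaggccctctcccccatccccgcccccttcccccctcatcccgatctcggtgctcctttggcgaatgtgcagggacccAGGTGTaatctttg
Eomes: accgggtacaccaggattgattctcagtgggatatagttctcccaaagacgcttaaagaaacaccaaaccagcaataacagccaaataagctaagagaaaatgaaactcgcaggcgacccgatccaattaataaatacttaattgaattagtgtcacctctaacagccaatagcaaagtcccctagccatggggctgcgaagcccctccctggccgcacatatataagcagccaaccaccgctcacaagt
Mesp1: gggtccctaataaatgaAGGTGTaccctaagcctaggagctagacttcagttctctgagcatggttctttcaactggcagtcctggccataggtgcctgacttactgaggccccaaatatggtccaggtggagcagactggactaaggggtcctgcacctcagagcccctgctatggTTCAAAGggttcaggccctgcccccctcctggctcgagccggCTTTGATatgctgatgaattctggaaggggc
Cyp26a1: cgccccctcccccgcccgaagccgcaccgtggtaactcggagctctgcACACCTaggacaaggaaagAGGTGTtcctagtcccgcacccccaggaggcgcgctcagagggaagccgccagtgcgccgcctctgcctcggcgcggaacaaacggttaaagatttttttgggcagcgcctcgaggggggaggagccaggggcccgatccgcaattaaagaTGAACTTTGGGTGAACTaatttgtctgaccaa

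Of 32851 promoters of the same length in the table, 3.21% hold CTTTGAT, 4.46% CTTTGAA and 11.8% AGGTGT. The T window holds CTTTGAA and AGGTGT, the Mesp1 window all 3 of these motifs and the Eomes window none. The Cyp26a1 window holds AGGTGT at 2 places and the direct repeat, which 7 of the 32851 promoters hold (0.0213%). No match overlaps another. The matches describe these letters only, and upstream sequences of Mixl1 and Rspo3 were not used here.

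Across all genes, 375 of the 7306 that reached 20 CPM on 1 side had a level 2-fold or more above that of the other kept cells (5.13%), and 286 a level 2-fold or more below it (3.91%). Without called doublets on either side, 539 of 7380 genes were higher (7.3%) and 470 lower (6.37%). The 13 genes of the rule were left out of these counts. The median log2 ratio over the 7306 genes was 0.07. The shares are over genes that reached 20 CPM, while the lists below are counted over every listed gene outside the rule, including those under 20 CPM on both sides, which could not be called. The cells were chosen in this same contrast, so the counts of listed genes below describe the chosen cells and are no test of their kind.

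Of 17 streak factors and signals outside the rule 11 reached 20 CPM. Of these 9 were at least 2-fold higher and none as much lower, with a median log2 ratio of 2.14 over all 17. Beside T and Eomes these were Fgf8, Evx1, Sp5, Gsc, Wnt3, Cdx2 and Fst. Fgf8, the growth factor of the streak, had between 0 and 19 UMIs per streak cell with a median of 2, and stood at 483 CPM (454 to 513) against 61.1 CPM (59.7 to 62.6). Gsc, a homeobox gene of the anterior streak, stood at 21.6 against 1.19 CPM, and Evx1, one of the posterior streak, at 30.5 against 6.14 CPM. Cdx2, a caudal homeobox gene, stood at 20.2 against 1.53 CPM. Nodal itself stood at 23.0 CPM (17.01 to 30.4) against 32.6 CPM (31.6 to 33.6), and its coreceptor Tdgf1 at 352 against 258 CPM, both within 2-fold.

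Of 18 lateral mesoderm genes 9 reached 20 CPM. Of these 8 were higher and none as much lower, with a median log2 ratio of 2.11 over all 18. Among them were Bmp4, Gata4, Gata6, Tbx3, Msx1, Msx2 and Pmp22. Msx1, a homeobox target of BMP signalling, stood at 63.3 CPM (53.1 to 74.96) against 4.24 CPM (3.88 to 4.63), and Gata6, a zinc finger factor of mesoderm and endoderm, at 41.3 against 2.59 CPM. The heart genes Myl7 (2.81 against 2.71 CPM), Tnnt2 (2.35 against 0.134 CPM) and Nkx2-5 (0.469 against 0.269 CPM) lay under 20 CPM on both sides. Of 12 haematoendothelial genes outside the rule 2 reached 20 CPM, and Runx1, a blood regulator, was higher, at 34.7 against 8.09 CPM. Cdh5, a cadherin of endothelium, had 1 UMI.

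Of 17 paraxial mesoderm genes 6 reached 20 CPM. Dll3, Pdgfra, Snai1, Cited1 and Lef1 were higher and Tcf15 was lower, with a median log2 ratio of 1.54 over all 17. The later regulators of this lineage were scarce. Tbx6 had 15 UMIs in 13 streak cells (7.04 against 0.328 CPM) and Msgn1 had 3 UMIs. Ripply2, a gene of forming somites, had 0 UMIs, under the limit of 3 counts. Snai1, a repressor of Cdh1, stood at 38.5 CPM (30.6 to 47.7) against 3.47 CPM (3.14 to 3.82).

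Of 20 BMP pathway genes 15 reached 20 CPM, of which 9 were higher and none lower, with a median log2 ratio of 1.15. The ligand Bmp4 stood at 62.4 against 17.4 CPM. Another ligand, Bmp2, stood at 22.5 against 2.94 CPM. The transducer Smad1 stood at 159 against 41.3 CPM, and the targets Id1, Id3, Msx1, Msx2, Bambi and Smad6 were all at least 2-fold higher, Id1 at 380 against 132 CPM. The receptors Bmpr1a (109 against 82.4 CPM) and Bmpr2 (100 against 52.7 CPM) were within 2-fold. Without called doublets 11 genes of the list were higher, Bmpr2 and Smad5 being added. The antagonist Nog stood at 10.8 against 1.05 CPM, under the level minimum.

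Of 30 WNT pathway genes 20 reached 20 CPM, of which 8 were higher and none lower, with a median log2 ratio of 0.65. The ligands Wnt3 (55.4 against 14.2 CPM), Wnt5a (122 against 11.4 CPM) and Wnt5b (36.6 against 7.55 CPM) were higher. Wnt3a had 15 UMIs (7.04 against 0.336 CPM), and Wnt11 had 0. Of the frizzled receptors Fzd1, Fzd2, Fzd7 and Fzd10 none passed 2-fold, with Fzd2 nearest at 43.6 against 21.4 CPM. The targets Sp5 and Nkd1 and the mediator Lef1 were higher, while the target Axin2 stood at 31.0 against 16.1 CPM. The inhibitors Dkk1 (22.5 against 1.202 CPM) and Sfrp1 (47.8 against 15.2 CPM) were also higher. Without called doublets 11 genes of the list were higher, Fzd2, Fzd10 and Axin2 being added, and 1, Sfrp2, was lower.

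Of 19 Nodal pathway genes 3 were higher, among them the receptor Acvr2b and the antagonist Fst, and 1, the ligand Gdf3, was lower at 15.01 against 36.53 CPM. The inhibitors Lefty1 (266 against 227 CPM) and Lefty2 (65.7 against 74.8 CPM) were within 2-fold. Of 20 FGF pathway genes 4 were higher (Fgf8, Fgf10, Dusp4 and Il17rd) and 2 lower. The lower pair were Fgf4, a ligand of pluripotent cells, at 7.97 against 34.9 CPM, and Etv5, at 80.7 against 181 CPM. Of 15 Notch pathway genes the ligand Dll3, the receptor Notch3 and the target Hes1 were higher, and none was as much lower. The median log2 ratios of these 3 lists were 0.45, 0.60 and 0.89, and 13, 15 and 5 of their genes reached 20 CPM.

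Cadherins and other adhesion genes differed in both directions. Cdh2 (N-cadherin) had between 0 and 18 UMIs per streak cell with a median of 2, and stood at 313 CPM (290 to 338) against 31.7 CPM (30.7 to 32.7). Cdh1 (E-cadherin) stood at 74.1 CPM (63.0 to 86.6) against 198 CPM (195 to 200). Thinned to 2000 UMIs, Cdh2 was found in 43.7% of streak cells, against 5.65% of the other kept cells, and Cdh1 in 9.83% against 30.3%. Before thinning the shares were 74.0% against 14.7% for Cdh2 and 28.4% against 63.3% for Cdh1. Of 84 streak cells with a UMI of Cdh1, 58 also had Cdh2. Of 17 mesenchymal genes 14 reached 20 CPM, and 11 were higher and none as much lower, among them Vim, Fn1, Twist1, Zeb1, Zeb2 and Tgfb2. Snai2 had 4 UMIs. Of 17 epithelial genes 14 reached 20 CPM, and 9 were lower (Cdh1, Epcam, Cldn3, Cldn4, Cldn6, Cldn7, Esrp1, Crb3 and Grhl2). Of the same list 3 genes were higher: the keratins Krt8 (119 against 48.7 CPM) and Krt19 (28.6 against 9.39 CPM) and the desmosome gene Dsp (72.2 against 21.0 CPM). Without called doublets the epithelial median log2 ratio was -1.88, against -1.08 with them, and 10 genes were lower, with Epcam at 84.9 against 357 CPM.

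Of 16 naive pluripotency genes 13 reached 20 CPM and 9 were lower, with a median log2 ratio of -1.41. Zfp42 stood at 114 CPM (99.7 to 129) against 429 CPM (426 to 433), and 30 of the 296 streak cells held 80.6% of its UMIs. Without called doublets Zfp42 stood at 34.9 against 433 CPM, 10 genes of the list were lower and its median log2 ratio was -2.38. The 1 higher gene was Tbx3, which also stands in the lateral list. Of 20 core and primed pluripotency genes 19 reached 20 CPM, and 7 were lower and none higher: Pou5f1, Sox2, Pou3f1, Utf1, L1td1, Pim2 and Cldn6. Without called doublets Nanog and Dnmt3b were lower too and Zic2 was higher, and Sox2 stood at 45.9 against 191 CPM and Utf1 at 26.0 against 183 CPM. Pou5f1 stood at 251.4 CPM (231 to 274) against 555 CPM (550 to 559), and thinned cells carried it in 28.8% of streak cells, 63.0% of the other kept cells and 18.6% of the collagen-group cells. Nanog stood at 35.2 against 69.1 CPM, just within 2-fold. Of 154 streak cells with T, 46 also had a UMI of Sox2.

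Cell cycle genes were near the level of the other cells. Of 20 S phase genes 1, the cyclin Ccne2, was at least 2-fold higher, and of 20 G2/M phase genes none was, with median log2 ratios of 0.18 and 0.07. Of 17 glycolysis genes 14 reached 20 CPM, of which Pdk1 was lower and none higher. Of 11 p53 target genes 4 were lower (Mdm2, Trp53inp1, Pmaip1 and Eda2r) and none higher, with a median log2 ratio of -0.95, and Mdm2 stood at 122 against 246 CPM. Without called doublets 7 of the 11 were lower, Ccng1, Phlda3 and Sesn2 being added, with a median of -1.30. Of 15 immediate early genes 8 reached 20 CPM and none passed 2-fold, while Jund and Klf6 were lower without called doublets.

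**Figure D2:**
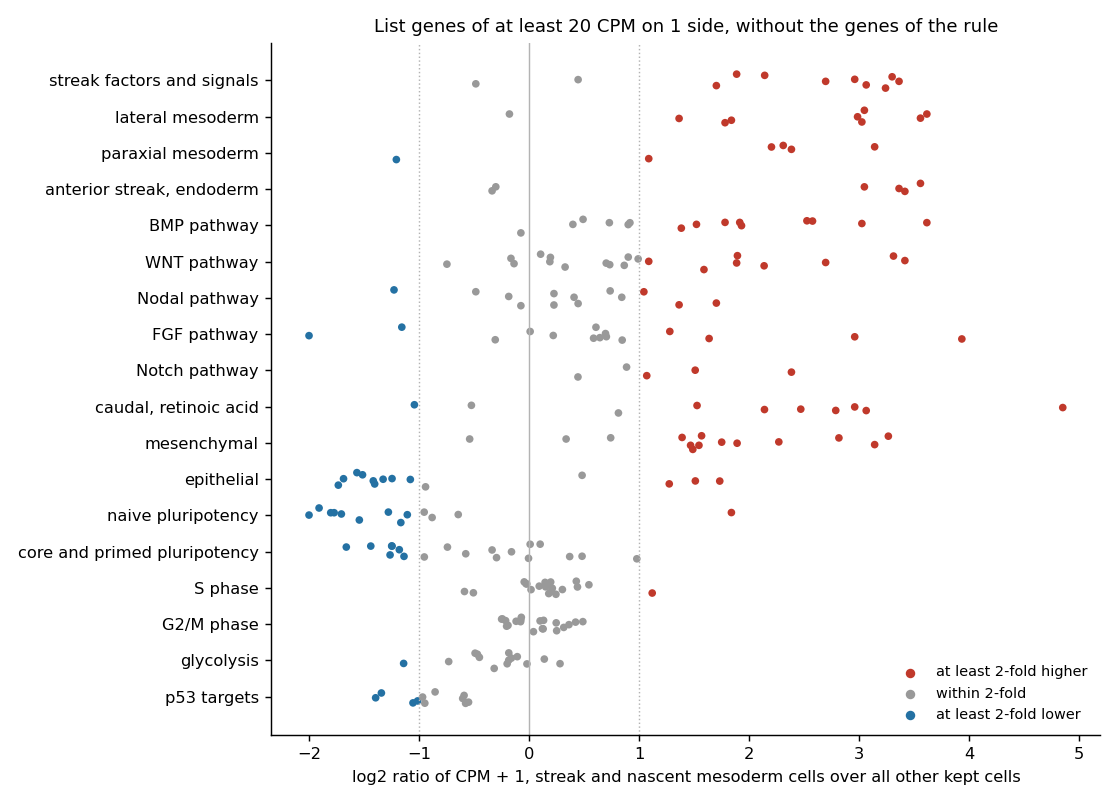
Log2 ratios of CPM + 1 in streak and nascent mesoderm cells over all other kept cells, 1 point per listed gene with at least 20 CPM on 1 side and without the genes of the rule; dotted lines mark 2-fold. The median over all 7306 genes was 0.07. Points of the mesoderm, BMP and mesenchymal lists lie mostly to the right, and those of the epithelial and pluripotency lists to the left.

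By rule of size, the 20 genes with the highest ratio were Cyp26a1, Sprr2a3, Bmper, Fgf10, Prdm6, Hoxaas3, Aplnr, Klhl6, Msx1, Gata6, Pcdh7, Tiam2, Dkk1, Plxna2, Gsc, Vstm2b, Fam110d, Wnt5a, Pcsk5 and T. Cyp26a1 stood at 146 CPM (130 to 163) against 4.08 CPM (3.73 to 4.46), a ratio of 28.9, with between 0 and 11 UMIs per streak cell and at least 1 in 131 of them. Thinned, it was found in 22.4% of streak cells, 0.726% of the other kept cells and 0.568% of the collagen-group cells. Bmper, a secreted modulator of BMP signalling, stood at 74.1 against 3.53 CPM, and Fgf10, a growth factor of mesenchyme, at 124 against 7.19 CPM. Aplnr, the apelin receptor of early mesoderm, stood at 25.8 against 1.03 CPM. Sprr2a3, of a family of cornified envelope genes with similar copies, rests on 60 UMIs in 25 cells. Against the Hand1 and Kdr cells described below, only Sprr2a3, Hoxaas3, Plxna2 and T of the 20 were at least 2-fold higher in streak cells. Prdm6 (141 against 305 CPM) and Vstm2b (73.7 against 151 CPM) were at least 2-fold lower in streak cells, and the rest of the 20 were within 2-fold.

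The 10 genes with the lowest ratio were Mmp3, Ccl2, Ly6a, Ccl7, Spp1, Hsf2bp, S100a6, Zfp42, Tdh and Enox1. Mmp3, Ccl2, Ly6a, Ccl7, Spp1 and S100a6 were high in the collagen-group cells, which lie among the other kept cells and which the rule keeps out. Mmp3, a matrix protease, stood at 0.469 CPM in streak cells against 62.3 CPM in the other kept cells and 1491 CPM in the collagen-group cells. Tdh, a threonine dehydrogenase highly active in mouse embryonic stem cells, stood at 54.9 against 190 CPM in the other kept cells and 72.9 CPM in the collagen-group cells. Without called doublets Tdh stood at 22.6 against 188 CPM, Enox1 at 11.6 against 111 CPM and Hsf2bp at 4.11 against 53.1 CPM.

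Of 20 caudal and retinoic acid genes 10 reached 20 CPM. Of these 7 were higher (Cdx2, Fgf8, Hoxb1, Hoxb2, Meis1, Meis2 and Cyp26a1) and 1 lower (the receptor Rarg), with a median log2 ratio of 0.85. Meis2, a homeodomain cofactor of Hox proteins, stood at 247 CPM (226 to 269) against 55.2 CPM (53.9 to 56.6). The 39 Hox genes summed to 234 CPM (214 to 256) against 47.1 CPM (45.9 to 48.4), and Hoxb2 held 121 of their 499 UMIs. In 2 groups described below, the Hox genes summed to 126 CPM (110 to 144, Hand1 and Kdr cells) and 140 CPM (132 to 148, Meis2 and Fgf8 cells). Of 12 neuroectoderm genes 4 reached 20 CPM, of which Fabp7, Sox11 and Cdh6 were higher and none as much lower, while Sox1 and Pax6 had 6 UMIs each.

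The streak cells did not form a uniform group. Leiden clustering of all kept cells placed 229 of them (77.4%) in a cluster of 655 cells led by Prdm6, Cyp26a1, Fgf10, Pcsk5 and Vstm2b, where they made up 35.0%. Another 48 (16.2%) lay in a cluster of 1790 cells led by Meis2, Fgf8, Fabp7, T and Npas3. The remaining 19 were spread over other clusters, at most 5 in each. Since the clusters were built from these genes, the following values describe them. Rspo3 stood at 446 CPM in the streak cells of the cluster led by Prdm6 and 461 CPM in those of the cluster led by Meis2. T stood at 167 and 322 CPM, but Eomes at 217 and 10.5 CPM and Mesp1 at 210 and 20.9 CPM. Meis2 stood at 200 and 542 CPM and Pou5f1 at 186 and 380 CPM. Of the 48 cells, 41 had Rspo3 as the gene with the most UMIs among the 4.

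Streak cells also differed by the gene of the rule that led in them. Rspo3 had the most UMIs in 150 cells, Lhx1 in 45, Mesp1 in 41 and Mixl1 in 32, and 28 were tied. This split overlaps with the clusters, as the cluster led by Meis2 held 41 Rspo3-led cells and 5 led by another of the genes. The part of either alone was not tested. Over the 118 cells led by another of the genes, 197 of 7272 genes (2.71%) were 2-fold or more higher in Rspo3-led cells and 127 (1.75%) as much lower. Eomes stood at 82.7 CPM in Rspo3-led cells against 246 CPM in the others, and Cyp26a1 at 92.2 against 200 CPM. T stood at 189 against 166 CPM. Of the 17 streak genes 1 was higher in Rspo3-led cells (Cdx2) and 6 were lower (Eomes, Evx1, Sp5, Gsc, Wnt3 and Tdgf1). Of 20 caudal and retinoic acid genes 5 were higher (Cdx2, Hoxb1, Meis2, Crabp1 and Crabp2) and 1, Cyp26a1, was lower. The Hox genes summed to 349 CPM (314 to 386) in Rspo3-led cells, against 117 CPM (95.2 to 142) in the others. Hoxaas3, a noncoding RNA of the Hoxa cluster, had 53 UMIs in 24 Rspo3-led cells, against 2 UMIs in 1 of the others. Whether the counting used strand is not known from the labels or headers, so its UMIs cannot be told apart from those of overlapping Hoxa genes.

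Streak cells were set beside 2 like groups of cells. The Hand1 and Kdr cells had at least 3 UMIs of Kdr, Etv2, Tal1, Lmo2 and Hand1 and fewer than 5 of the collagen group (202 cells). Of these, 102 also had at least 3 UMIs of the 4 streak genes. The Meis2 and Fgf8 cells had both genes, at least 3 of their UMIs together, and belonged to neither of the other groups nor to the collagen group (999 cells), while 121 streak cells also met the limits on Meis2 and Fgf8. Over the Hand1 and Kdr cells, 151 of 7209 genes (2.09%) were at least 2-fold higher in streak cells and 85 (1.18%) were lower. Over the Meis2 and Fgf8 cells, 232 of 7189 genes (3.23%) were higher and 90 (1.25%) lower. T stood at 182 CPM in streak cells, 50.3 CPM in Hand1 and Kdr cells and 123 CPM in Meis2 and Fgf8 cells. Eomes stood at 165, 194 and 25.2 CPM in the same order of groups, and Cyp26a1 at 146, 167 and 4.44 CPM. Fgf8 stood at 483, 87.9 and 517 CPM, partly by construction in the last group, and Fst at 192, 38.9 and 254 CPM.

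Snai1 was higher in streak cells than in either group, at 38.5 CPM (30.6 to 47.7) against 15.6 CPM (10.2 to 22.8) in Hand1 and Kdr cells and 3.60 CPM (2.43 to 5.14) in Meis2 and Fgf8 cells. Against Hand1 and Kdr cells, 5 of 17 streak genes were higher (T, Sp5, Fgf8, Cdx2 and Fst) and none lower, and 4 of 12 haematoendothelial genes were lower (Gata2, Runx1, Fli1 and Egfl7). The lower haematoendothelial genes are partly by construction, as the 2 groups have opposite limits on Kdr, Etv2, Tal1, Lmo2 and Hand1. The genes with the highest ratio there, named after their values were seen, were Igfbp3 (87.7 against 10.8 CPM), Slit2 (77.9 against 10.8 CPM), Fgf8, Meis2 and Dach1. Lyz2, a macrophage gene, stood at 1.41 CPM in streak cells against 110 CPM in Hand1 and Kdr cells, and 4 of 9 macrophage genes were lower. The part of these genes in the other differences from Hand1 and Kdr cells was not tested. Of 20 BMP pathway genes none was higher in streak cells than in Hand1 and Kdr cells and 1, Bmp2, was lower. Of 18 lateral mesoderm genes none was higher there and 3 were lower (Hand2, Pmp22 and Ahnak). Of 17 mesenchymal genes 1, Snai1, was higher there and none lower. Against Meis2 and Fgf8 cells, 9 of 20 BMP pathway genes, 8 of 18 lateral mesoderm genes and 7 of 17 mesenchymal genes were higher in streak cells, and none of these lists had a lower gene. Pou5f1, Nanog, Pou3f1, L1td1 and Pim2 were lower, with Pou5f1 at 251.4 against 546 CPM. None of 11 p53 target genes passed 2-fold against Hand1 and Kdr cells or Meis2 and Fgf8 cells (median log2 ratios -0.05 and -0.24). Of 17 epithelial genes none was lower against either group (medians -0.11 and -0.41, with 10 genes reaching 20 CPM in each). Krt8, Krt19 and Dsp were higher over Meis2 and Fgf8 cells, and none was higher over Hand1 and Kdr cells. Of 16 naive pluripotency genes none was lower against either group (medians -0.20 and 0.03, with 7 genes reaching 20 CPM in each). In each 1 was higher, Dppa3 over Hand1 and Kdr cells and Tbx3 over Meis2 and Fgf8 cells. Of the 108 Dppa3 UMIs in streak cells, 55 were in 1 cell.

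**Figure D3:**
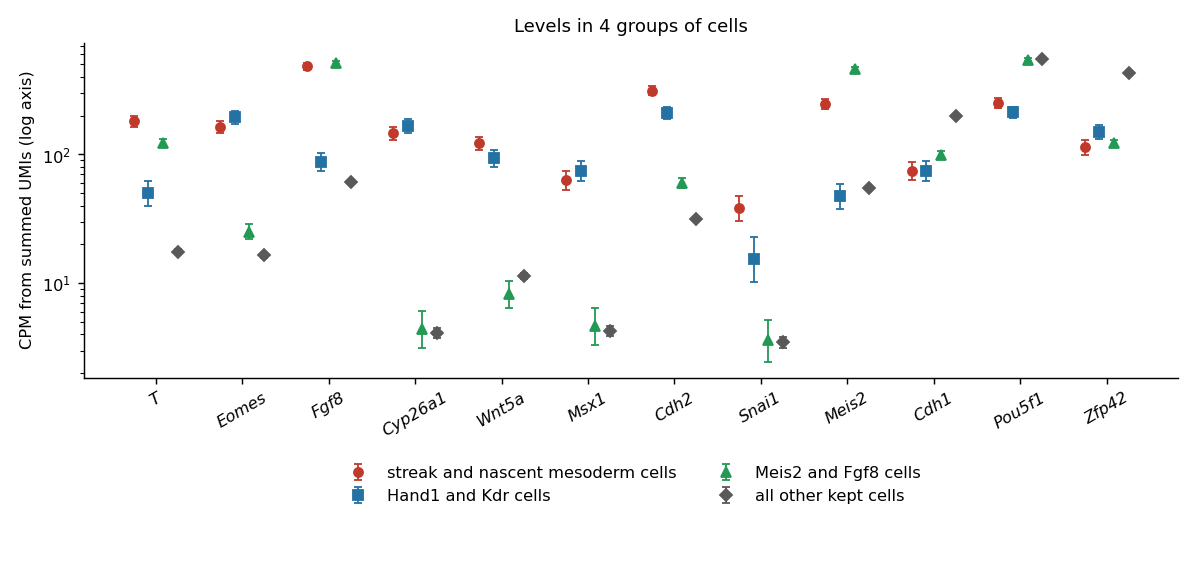
Levels (CPM from summed UMIs, log axis) of 12 genes in streak and nascent mesoderm cells, Hand1 and Kdr cells, Meis2 and Fgf8 cells and all other kept cells; bars are exact Poisson 95% intervals. The other kept cells include both middle groups. Eomes and Cyp26a1 lie close together in the first pair of groups (165 and 194 CPM, 146 and 167 CPM), and Fgf8 lies at 483 CPM in streak cells and 517 CPM in Meis2 and Fgf8 cells.

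The tag oligos, sequences attached to cells before pooling, were a readout that the rule did not use. Streak cells had a median of 2325 CMO312 UMIs (quartiles 1005 and 3672) and 914.5 CMO311 UMIs (quartiles 652 and 2085). The other kept cells had medians of 395 CMO312 and 1057 CMO311 UMIs, and cell-free droplets 340 and 830. Of the streak cells 217 had more CMO312 than CMO311 (73.3%, 67.9 to 78.3%), against 23.5% of the other kept cells (22.9 to 24.2%). CMO312 was not particular to streak cells. Hand1 and Kdr cells had a median of 2734 CMO312 UMIs and more CMO312 than CMO311 in 82.2% of cells (76.2 to 87.2%), and Meis2 and Fgf8 cells a median of 321 and 8.71% (7.03 to 10.6%). Conversely, streak cells made up 5.28% of the kept cells with more CMO312 (4.61 to 6.004%) and 0.621% of those with at least as much CMO311 (0.492 to 0.773%). The 90th percentile of cell-free droplets was 478 CMO312 UMIs, and 246 streak cells (83.1%) were above it. For CMO311 it was 1228 UMIs, and 106 streak cells (35.8%) were above it. Without called doublets, 75% of streak cells had more CMO312, against 23.6% of the other kept cells. The tags were within 2-fold of each other in 58 streak cells. In the authors' deposited table, 295 of the 296 were unassigned and 1 was given to CMO312. The labels tie neither tag to a sample.

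**Figure D4:**
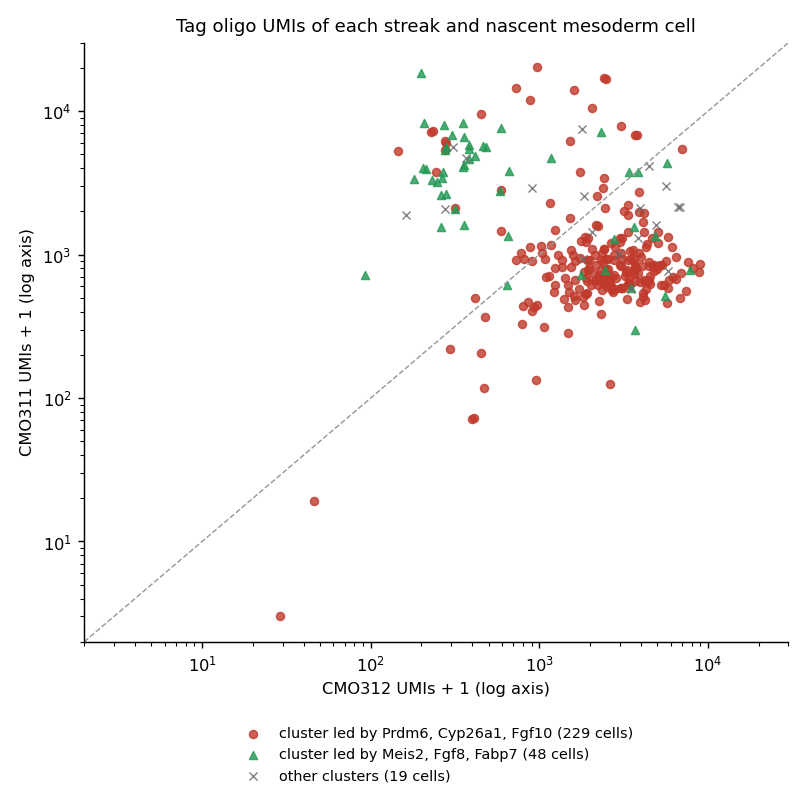
Tag oligo UMIs + 1 of each of the 296 streak and nascent mesoderm cells, CMO312 across and CMO311 upward (log axes), by the cluster that held the cell; the dashed line marks equal counts. Cells of the cluster led by Prdm6 lie mostly below the line (193 of 229 have more CMO312), and those of the cluster led by Meis2 mostly above it (12 of 48).

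The 2 tags went with different streak cells. More CMO312 than CMO311 was found in 193 of 229 streak cells of the cluster led by Prdm6 (84.3%, 78.9 to 88.7%) and in 12 of 48 of the cluster led by Meis2 (25%, 13.6 to 39.6%). The following split by tag was chosen after these values were seen. Over the 79 streak cells with at least as much CMO311, 168 of 7372 genes (2.28%) were at least 2-fold higher in the 217 with more CMO312 and 250 (3.39%) were lower. The 217 and the 79 are called CMO312-rich and CMO311-rich cells, which compares the tags within a cell and not with droplets: 209 of the 217 and 71 of the 79 were above the droplets' 90th percentile of their leading tag. Doublets were called for 17.1% of the CMO312-rich and 24.1% of the CMO311-rich cells, and their part was not tested. BMP pathway genes were higher with CMO312 in 8 of 20 cases and lateral mesoderm genes in 7 of 18, with none of either list lower. Msx2 stood at 65.0 CPM in CMO312-rich cells against 7.47 CPM in CMO311-rich cells, Wnt5a at 158 against 43.3 CPM and Eomes at 212 against 61.2 CPM. T stood at 162 against 224 CPM, Fgf8 at 487 against 473 CPM and Meis2 at 178 against 397 CPM. In the 209 and 71 cells alone, Msx2 stood at 66.0 against 8.39 CPM, Wnt5a at 155 against 45.3 CPM, Eomes at 212 against 60.4 CPM, T at 161 against 230 CPM and Meis2 at 180 against 403 CPM. Fgf8, at 478 against 488 CPM, was there lower in the CMO312-rich cells.

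Of 17 anterior streak, endoderm and node genes outside the rule 6 reached 20 CPM, and 4 were at least 2-fold higher in streak cells than in the other kept cells (Gsc, Gata6, Gata4 and Dkk1) and none as much lower, with a median log2 ratio of 2.28. Genes of the node and the definitive endoderm were carried by few streak cells, and mainly by CMO311-rich ones. Foxa2, a forkhead factor of the anterior streak, stood at 1.37 CPM in CMO312-rich cells (2 UMIs) against 52.3 CPM in CMO311-rich cells (35 UMIs), in 19 streak cells in all. Sox17, a factor of definitive endoderm, had 13 UMIs in 4 streak cells. Shh, a signal of the node and notochord, had 11 UMIs in 4 cells, and Cer1, a secreted Nodal inhibitor of anterior endoderm, 10 UMIs in 5 cells. Cer1, Shh, Chrd and Noto had 0 UMIs in CMO312-rich cells, each under the limit of 3 counts. At least 2 of Foxa2, Foxa1, Sox17, Cer1, Shh, Noto and Chrd were found in 14 of the 79 CMO311-rich cells (17.7%, 10.0 to 27.9%) and in 0 of the 217 CMO312-rich cells, which allows a share of up to 1.38% by the limit of 3 counts and 1.69% by the exact interval. Of the 14 cells 13 were among the 71 above the droplets' percentile. The share was 0.169% in the other kept cells (28 cells) and 0.701% in Meis2 and Fgf8 cells. A similar split was seen by cluster. The share was 16.7% (8 cells, 7.48 to 30.2%) in the 48 streak cells of the cluster led by Meis2. In the 229 of the cluster led by Prdm6 it was 1.31% (3 cells, 0.271 to 3.78%). Tag and cluster overlap in streak cells, and the part of either alone was not tested. The 14 cells held 17 of the 37 Foxa2 UMIs, 28 Lhx1 UMIs and 41 T UMIs, but 1 Mesp1 UMI, and 4 of them were called doublets.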

How the data were processed

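Counts of single-cell 3' gene expression and tag oligos are deposited as 1 pooled matrix, in which all barcodes share 1 suffix. The authors' deposited matrix, made by Cell Ranger 8.0.1 per the file headers, gives unnormalized UMI counts of 33696 genes and 12 tags in each barcode. The submitters' processing notes name Cell Ranger and Seurat but no build among the sources used here. The deposited tag table gives, for each of 21593 called cells, an assignment and the probability of each tag state as a fraction. The labels describe 1 channel per sample with a target of 10000 cells, which the pooled matrix does not show.

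Kept cells were clustered (scanpy 1.11.5, 2000 variable genes, 30 components, 15 neighbours, Leiden resolution 0.5), and doublets were called with Scrublet (expected rate 0.1; 2145 cells, 12.7%). UMIs were summed per group of cells, scaled to CPM and compared as log2 ratios after adding 1 CPM. A gene was called at 2-fold with 20 CPM on the higher side. List medians cover every listed gene outside the rule. With 1 pooled matrix and 1 sample per group there is no replicate, so no p-value was computed, and intervals cover counting error only. Named genes were the rule's markers and T, the 20 highest ratios, the 10 lowest among genes with 50 CPM or more in the other cells, and listed genes with the largest ratios or a role to describe; provisional, mitochondrial and ribosomal protein names were left out. The comparison was run on simulated Poisson counts of summed groups with planted changes in level. These hold no spread between cells, no doublets and no choice by the rule, so they check the calculation only. The cells, the gene groups and the 27 lists were chosen with earlier results of these data known. Alternatives changed the rule's minimum, its genes, cell filters, doublets, depth, the pseudocount and the level minimum. 1 listed gene is counted in its lists but not reported by name here.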

Additional observations from a re-analysis of the deposited data

Results flagged for a closer look

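The tag oligos lie outside the gene expression measurement, and CMO312 counts in streak and nascent mesoderm cells were above those of droplets. The median of CMO312 was 2325 UMIs in streak cells, against 395 in the other kept cells and 340 in cell-free droplets of 150 to 300 UMIs. It was 2734 in Hand1 and Kdr cells and 2698 in all 655 cells of the cluster led by Prdm6, so the high count was not particular to streak cells. Of the streak cells 246 (83.1%) lay above 478 UMIs, the 90th percentile of the droplets. The labels tie neither tag to a sample, so this value was given to no condition. In the authors' deposited table the median probability of CMO312 was 0.643 in streak cells and 0.380 in the other kept cells, and 295 of 296 streak cells were unassigned.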

How the results depend on the processing

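Of 155 values recomputed under alternatives for 12 results, 135 stayed within the tolerance and 20 moved beyond it. A change of direction was looked for only in the 13 values of the T ratio, and none was found. The tolerance was 1.5 times for a count of genes and the 95% interval for any other value, so that 539 higher genes without called doublets and 12 higher lateral genes with a minimum of 5 CPM lie within it. The share of kept cells, 1.76%, became 2.57% with a minimum of 2 UMIs and 0.956% with 5. With the genes of the rule left out in turn, also chosen after the data were seen, it became 0.831% without Rspo3, 1.502% without Lhx1, 1.54% without Mesp1 and 1.53% without Mixl1. Thinning every cell to 2000 UMIs before the rule left 119 streak cells (0.719%). The log2 ratio of T, 3.30, became 3.64 without called doublets, 3.10 with thinning and 3.05 with 5 CPM added. The 375 genes that were 2-fold higher became 840 with thinning and 704 with a minimum of 5 CPM. The 286 lower ones became 470 without called doublets, 812 with thinning and 699 with a minimum of 5 CPM. The median of CMO311, 914.5 UMIs, became 796 with thinning.

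Limiting streak cells to those with more CMO312 than CMO311, an alternative chosen after the data were seen, gave a share of 1.29% and a T ratio of 3.14. The tag medians became 2808 for CMO312 and 764 for CMO311. The cause of these moves was not tested, except that a lower level minimum lets more genes be counted. Over all alternatives, higher genes of the streak list numbered 8 to 11, lateral 8 to 12, BMP 9 to 11 and mesenchymal 11 to 12, and lower genes numbered 8 to 10 in the epithelial and 7 to 11 in the naive list. No paired analysis was possible because the cells cannot be given to samples and each group has 1 sample. Depth limits genes with few UMIs: a count of 0 in streak cells is given with a limit of 3 counts.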

Other observations

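Several genes that led the CMO311-rich side rested on 1 cell. Of 50 Ralyl UMIs in streak cells 49 were in 1 cell, as were 49 of 66 for Nlgn1, 36 of 53 for Cpne5 and 55 of 108 for Dppa3. Isg15, an interferon-induced gene, was spread more widely, with 206 UMIs in 72 streak cells. It stood at 28.0 CPM in CMO312-rich cells against 246 CPM in CMO311-rich cells, with 322 CPM in Meis2 and Fgf8 cells and 788 CPM in the collagen-group cells.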
